A study of Homo sapiens with 45 samples.

Results

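MDA-MB-157 is an established line of human breast cancer cells with no estrogen receptor, progesterone receptor or ERBB2 amplification, and it is usually placed in the basal B class. Basal B lines are breast cancer lines that have largely left the epithelial state: they make vimentin and ZEB1 and little E-cadherin. Here the 3 MDA-MB-157 libraries, of 45 libraries of 15 lines in all, were compared with 18 libraries of 6 other basal B lines, which are BT-549, HCC1395, HCC38, Hs578T, MDA-MB-231 and MDA-MB-436, with 3 libraries each. The libraries were chosen by the name of the line. The class of a line is textbook knowledge, since the labels give each line only as epithelial cells of a breast cancer with a wild-type genotype. No line was treated. MDA-MB-157 was grown in Leibovitz's L-15, a medium with galactose and pyruvate and no added bicarbonate, as were MDA-MB-231 and MDA-MB-436, the latter with insulin and glutathione added. BT-549 (with insulin), HCC1395 and HCC38 were grown in RPMI medium and Hs578T in DMEM, each with L-glutamine added. All media held fetal bovine serum and antibiotics. MDA-MB-157, BT-549, HCC1395 and MDA-MB-436 were sequenced in runs 3, 4 and 5, with replicate 1, 2 and 3 of each line in 1 run each, and HCC38, Hs578T and MDA-MB-231 in runs 1 and 2.

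Total RNA was depleted of ribosomal RNA and the reads assigned to each gene were counted. The MDA-MB-157 libraries held 4308892 to 5502463 counts and 34605 to 36109 genes with at least 1 count, and the 18 others 2312138 to 10206100 counts and 28872 to 40272 genes. Transcripts of the mitochondrial genome took 0.439% to 0.647% of the counts of MDA-MB-157 and 0.0507% to 0.782% in the others (median 0.163%). Replicate 2 of Hs578T held the fewest counts and the most detected genes of the 21 libraries and the highest mitochondrial share. Whether separate cultures lie behind the 3 replicates is not in the labels, so p-values below rest on a spread between libraries that may be technical only. They also compare 1 line with 6, and no test with the line as the unit can go below 0.143 for 1 direction. Levels are CPM, which are counts scaled to a common library total, here with TMM factors. A difference is the fitted log2 level of MDA-MB-157 minus the mean of the 6 line levels, so a line with almost no reads of a gene widens it. A gene was called when its adjusted p was under 0.05 in edgeR's quasi-likelihood test and its difference was at least 1 log2 unit, and it was called without overlap when also all 3 MDA-MB-157 libraries lay above, or all below, the 18 others.

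Markers placed MDA-MB-157 among the mesenchymal breast lines that its class describes, with vimentin at a high level and E-cadherin near 0. The intermediate filament gene VIM stood at 2608, 2970 and 2853 CPM in its 3 libraries and at 324 to 4647 CPM (median 1759) in the others. The repressor of epithelial genes ZEB1 stood at 52.1, 58.2 and 60.4 CPM against 5.41 to 198 CPM (median 112). Both overlapped the other lines and neither was called. Of 11 markers of the basal B or mesenchymal state, 4 were higher and 2 lower than in the other lines. Without overlap 1 was higher and 2 were lower, and within runs 3 to 5 the count was 3 higher and 1 lower. The epithelial cadherin CDH1 was near 0, at 1.27, 1.52 and 1.78 CPM, and the epithelial adhesion gene EPCAM stood at 5.56, 4.38 and 6.94 CPM. The difference of EPCAM from the mean of the other lines was negative, but it was positive within runs 3 to 5 and without HCC38. Of 30 tested genes of epithelial junctions and keratins, 5 were higher and 7 lower, none without overlap. Over all 20587 tested genes, 3715 (18%) were called higher and 2447 (11.9%) lower, and without overlap 1399 (6.8%) higher and 980 (4.76%) lower, with a median difference of 0.05. The keratin gene KRT7 was among the lower (-4.25 ± 0.31). Within the lines of runs 3 to 5 the epithelial count turned to 7 higher and 3 lower, and without Hs578T it was 3 and 10. Of 21 basal keratinocyte markers, 11 were lower and 1 was higher, and within runs 3 to 5 5 and 2 of 13. Among them KRT15 differed by -3.53 ± 0.33, the checkpoint protein gene SFN by -2.76 ± 0.40 and the laminin receptor gene ITGA6 by -2.76 ± 0.14. Of 17 luminal markers 4 were higher, namely PGR, KIT and the overlapping pair KRT8 and KRT18, of which only KIT lay above all 18 libraries, and 0 lower. Within runs 3 to 5 5 of 9 were higher, and against the L-15 lines 1 was higher and 2 lower. The summed level of the luminal markers was 591 to 652 CPM in MDA-MB-157 and 161 to 1140 CPM in the 18 others. The estrogen receptor ESR1 stood at 3.66 ± 0.956 CPM (SD, n = 3), the pioneer factor FOXA1 at 0.646 ± 0.217 CPM and GATA3 at 0.521 ± 0.146 CPM, and none of the 3 was called. SPDEF had 0 counts in MDA-MB-157.

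The full comparison asked which genes set MDA-MB-157 apart from its class. Against single lines, 6649 genes (32.3%) were called against MDA-MB-231, 6685 (32.5%) against Hs578T, 7120 (34.6%) against MDA-MB-436, 7305 (35.5%) against BT-549, 8454 (41.1%) against HCC38 and 8496 (41.3%) against HCC1395. These comparisons share the MDA-MB-157 libraries. Of the genes called against the mean, 60.3% were higher. With scaling factors from genes of at least 10 CPM in every library, the median gene moved by 0.213 log2 units, and 4601 genes were higher and 1741 lower, a share of 72.5%. Within the lines of runs 3 to 5, 3600 genes were higher and 2503 lower.

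The rule for named genes gave 15 genes on the higher side. KCNE4, which encodes an auxiliary subunit of potassium channels (ENSG00000152049.6, chromosome 2, 223051814 to 223198399), stood at 264, 263 and 262 CPM in MDA-MB-157 and at 0 to 38.1 CPM (median 0.7) in the others, a difference of 7.85 ± 0.18 log2 units (SE; edgeR, adjusted p = 3.36e-35). The 3 libraries were almost equal, and the nearest line was Hs578T with 27.1 ± 13.5 CPM. COL14A1, a collagen that binds to the surface of fibrils, stood at 886, 726 and 775 CPM against 2.16 to 28.5 CPM (median 8.03), a difference of 6.74 ± 0.12 log2 units (SE; edgeR, adjusted p = 6.05e-39). No library of another line came near this level. The adhesion gene CADM3 (21.6 against a median of 0.188 CPM) and the synaptic adhesion gene NLGN4X (109 against 0.767 CPM) also lay above all 18 libraries. So did the acyltransferase gene ZDHHC22 (14.3 against 0.173 CPM), the membrane protein gene ITM2A (31.7 against 0.317 CPM) and the surface protein gene SUSD2 (53.6 against 0.536 CPM). The septin gene SEPT4 (90.2 against 2.1 CPM), the large cadherin DCHS1, a ligand of FAT4 (51.1 against 0.798 CPM), and the protocadherin PCDHA6 (13.4 against 0.281 CPM) were named because of their distance from the nearest line. PCDHA genes share their last exons, so the count of PCDHA6 depends on how shared reads were assigned. All 29 named genes kept their call without overlap within runs 3 to 5, against the L-15 lines alone, without Hs578T and without its shallow replicate 2. These settings use only part of the same 18 libraries by which the genes were named. Their lack of overlap was thus largely fixed in advance and is no separate support.

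**Figure D1:**
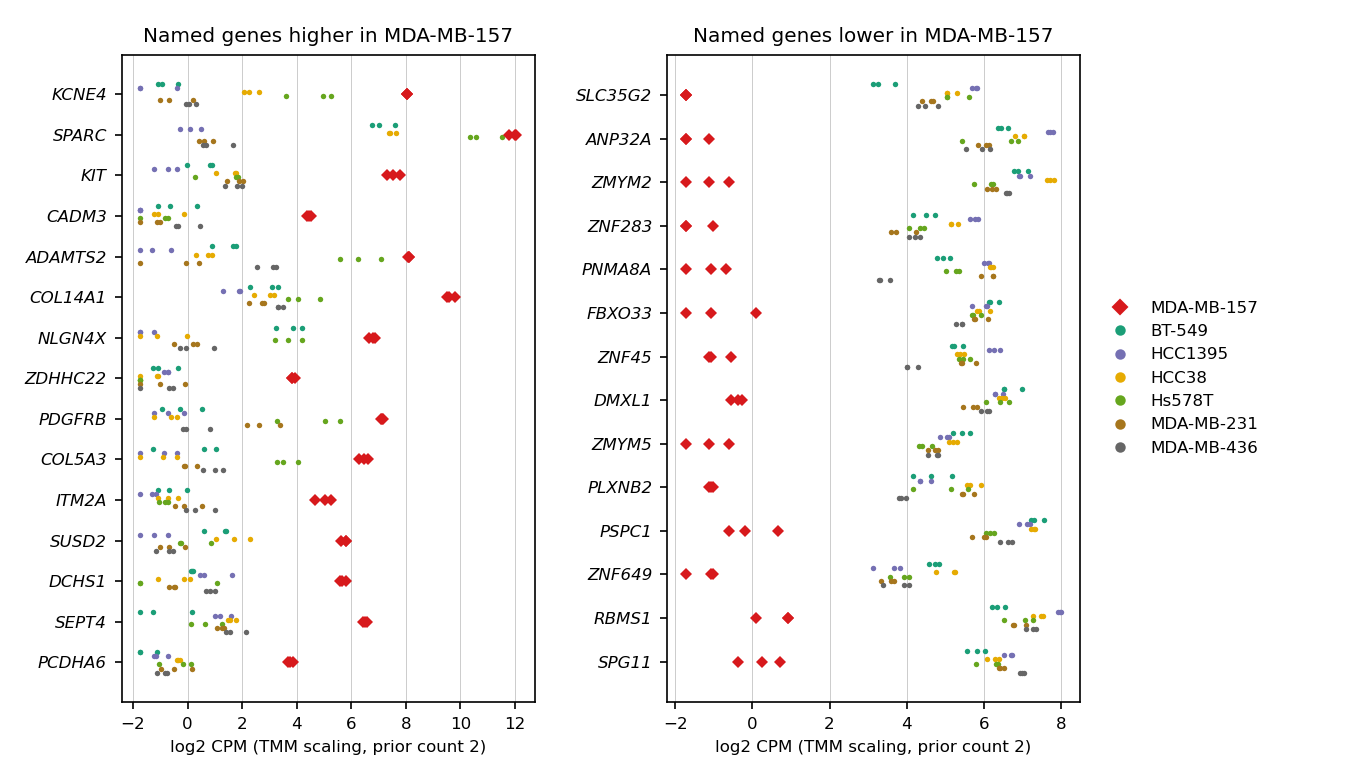
Log2 CPM of the 29 named genes in the 21 basal B libraries, with MDA-MB-157 as red diamonds and each other line in its own colour. Genes named as higher are on the left and as lower on the right, and in every row the 3 diamonds lie outside the 18 points of the other lines.

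Many extracellular matrix genes were higher in MDA-MB-157. Collagens are secreted as procollagens, trimmed outside the cell and crosslinked. Type IV chains form the sheet of basement membranes with laminins and nidogen, while types I, III and V form fibrils. Of 23 collagen genes tested, 15 were higher and 6 lower, 6 and 0 without overlap, with a median difference of 2.56 (16 higher and 4 lower within runs 3 to 5). Of 34 other matrix genes, 20 were higher and 3 lower, 6 and 1 without overlap, with a median of 1.50 (22 higher and 2 lower within runs 3 to 5).

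Several basement membrane genes were higher without overlap. COL4A1 (ENSG00000187498.14, chromosome 13, 110148963 to 110307233) stood at 1102, 1183 and 1192 CPM against 0.103 to 907 CPM (median 69), and its divergently transcribed neighbour COL4A2 at 1426, 1420 and 1370 CPM against 0 to 889.5 CPM (median 149.8). The differences were 5.14 ± 0.16 log2 units (SE; edgeR, adjusted p = 8.53e-30) and 4.50 ± 0.17 log2 units (SE; edgeR, adjusted p = 4.05e-26). Neither gene overlapped, although Hs578T came near with 549.8 ± 324 and 597 ± 271 CPM (SD, n = 3), and HCC1395 had almost no reads of either (0.166 and 0.254 CPM). NID1, which links laminin to type IV collagen, stood at 123, 115 and 141 CPM against 0.263 to 24.7 CPM (median 6.59), a difference of 4.75 ± 0.17 log2 units (SE; edgeR, adjusted p = 1.17e-27). The laminin chain genes LAMA4 (3.94 ± 0.12) and LAMB1 (1.89 ± 0.11) and the multiplexin COL18A1 (2.44 ± 0.16) were higher without overlap too. The type IV chain COL4A5, on X, went the other way, at -2.46 ± 0.20 log2 units.

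SPARC, a secreted protein that binds collagen and calcium (ENSG00000113140.10, chromosome 5, 151661096 to 151687165), stood at 4188, 3524 and 4143 CPM in MDA-MB-157. The other libraries ranged from 0.514 to 2932 CPM (median 56.1), and the difference was 7.52 ± 0.22 log2 units (SE; edgeR, adjusted p = 1.67e-30). All 3 libraries lay above the 18 others, but Hs578T reached 1916 ± 885 CPM and 3 lines stood under 2 CPM.

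Fibril genes were split. COL3A1 stood at 1441, 1245 and 1340 CPM against 0.411 to 1773 CPM (median 3.85), a difference of 6.91 ± 0.21 log2 units (SE; edgeR, adjusted p = 3.06e-30), and a Hs578T library lay above all 3. COL5A3 was higher without overlap, at 77.5, 98.6 and 87.4 CPM against 0 to 16.3 CPM (median 0.802), a difference of 6.48 ± 0.24 log2 units (SE; edgeR, adjusted p = 1.07e-26), and COL5A1 and COL5A2 were higher with overlap (3.47 ± 0.22 and 3.93 ± 0.15). The chains of type I collagen did not move together: COL1A1 stood at 20.2 CPM and was higher by 2.74 ± 0.28, and COL1A2 stood at 4.41 CPM and was lower (-2.15 ± 0.34). COL1A2 was not called without Hs578T (-0.88) or against the L-15 lines (0.22). In Hs578T COL1A1 and COL1A2 stood at 158 and 1626 CPM. ADAMTS2, the protease that removes the amino-terminal propeptide of fibrillar procollagens, stood at 275, 278 and 272 CPM against 0 to 138 CPM (median 1.55), a difference of 6.77 ± 0.20 log2 units (SE; edgeR, adjusted p = 1.93e-30). SERPINH1 encodes HSP47, the collagen chaperone of the endoplasmic reticulum. It was lower than in every other library, at 14.9, 18.8 and 15.1 CPM against 64.6 to 590.3 CPM (median 130.3), a difference of -3.11 ± 0.24 log2 units (SE; edgeR, adjusted p = 2.43e-15). High mRNA of several collagens thus stood beside the lowest level of this chaperone among the 7 lines. Lysyl hydroxylase PLOD2 (1.98 ± 0.11) and the crosslinkers LOXL1 (2.37 ± 0.21) and LOXL2 (1.70 ± 0.15) were higher. The proteoglycan LUM reached 264 CPM against a median of 0.5 CPM, with Hs578T at 353 CPM.

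**Figure D2:**
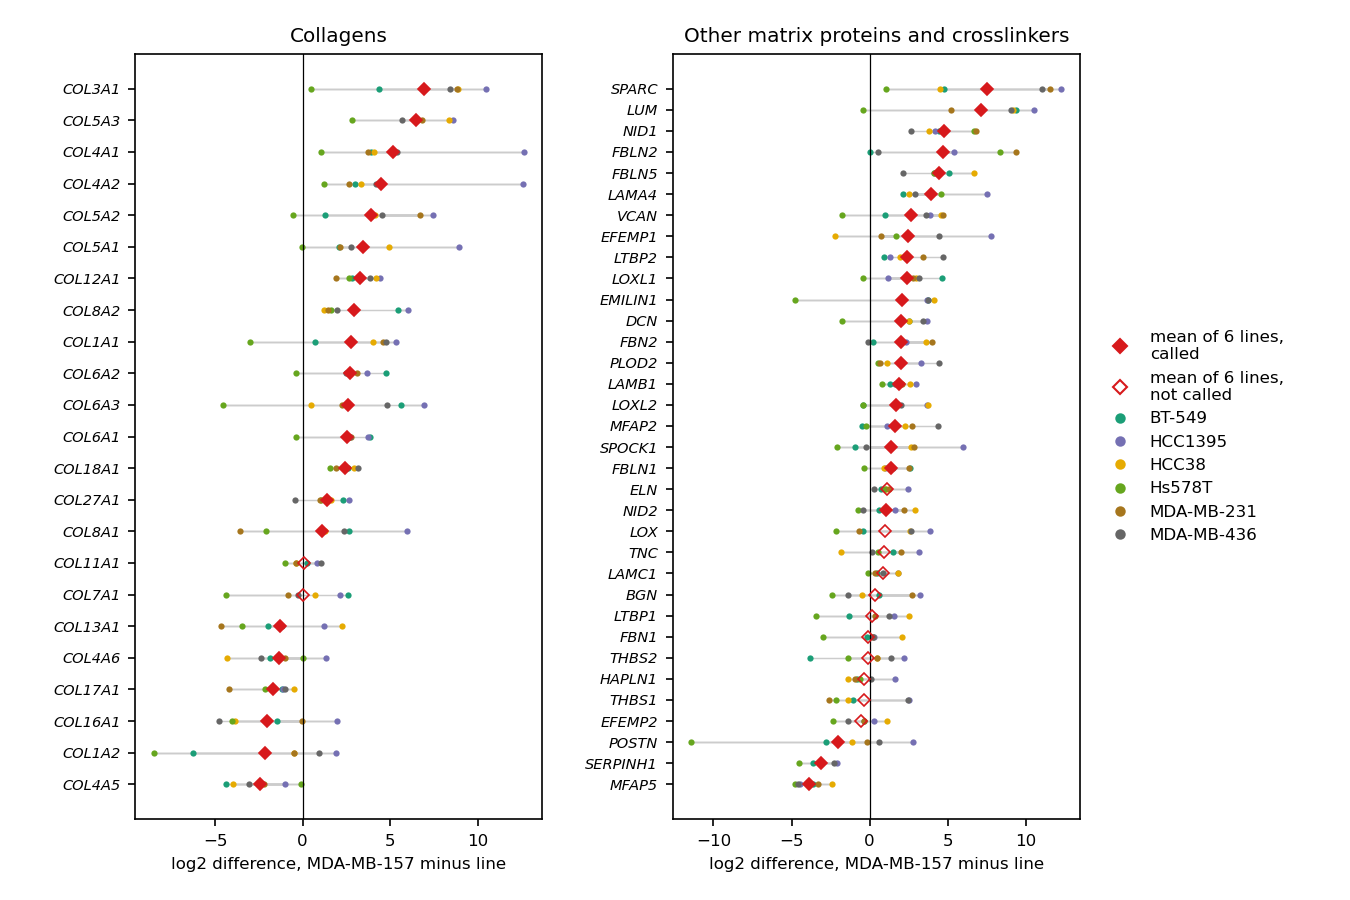
Log2 difference between MDA-MB-157 and each of the 6 other lines (coloured points) and their mean (diamond, filled where called) for 23 collagens and 34 other matrix genes, ordered by the mean difference. COL4A1, COL4A2, COL5A3, SPARC and NID1 lie to the right of 0 against every line and SERPINH1 to the left, while the Hs578T points of COL1A1, COL1A2 and POSTN lie far to the left.

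Proteases that degrade matrix and their inhibitors were split, and the balance turned with the lines compared: of 21 genes, 4 were higher and 6 lower (median 0.15), but 9 higher and 4 lower within runs 3 to 5. The membrane protease MMP14 differed by -3.48 ± 0.17, the collagenase MMP1 by -5.26 ± 0.65, urokinase PLAU by -2.94 ± 0.23 and its receptor PLAUR by -1.96 ± 0.15, and PLAU and PLAUR were lower without overlap. The gelatinase MMP2 (2.10 ± 0.28) and the inhibitor TIMP1 (1.92 ± 0.15) were higher. Of 20 integrin genes, which encode the receptors for matrix, 8 were higher and 6 lower. The collagen receptor chain ITGA1 stood at 353, 328 and 352 CPM against 5.17 to 42.1 CPM (median 18.5), a difference of 4.17 ± 0.10 log2 units (SE; edgeR, adjusted p = 9.41e-34), without overlap. ITGA9 (5.30 ± 0.20) and ITGA7 (2.31 ± 0.26) were also higher without overlap. The fibronectin receptor chain ITGA5 (-2.31 ± 0.20) was lower without overlap.

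Several markers of fibroblasts and of pericytes, the contractile cells around small vessels, were high in MDA-MB-157. Of 10 fibroblast markers 7 were higher and 2 lower, with a summed level of 1790 to 2030 CPM in MDA-MB-157 and 6.37 to 5920 CPM in the 18 others. Of 5 tested pericyte and smooth muscle markers 3 were higher and 1 was lower, with a sum of 548 to 612 CPM in MDA-MB-157 and 7.98 to 451 CPM in the 18 others. ACTA2, which encodes smooth muscle actin, stood at 250, 302 and 286 CPM against 1.97 to 215 CPM (median 13.1), a difference of 4.44 ± 0.22 log2 units (SE; edgeR, adjusted p = 4.85e-22). The adhesion gene MCAM stood at 221, 236 and 219.8 CPM against 1.54 to 111 CPM (median 19.7), a difference of 3.64 ± 0.14 log2 units (SE; edgeR, adjusted p = 2.61e-26). Both were above all 18 libraries. The definers of these cells did not all follow: the pericyte proteoglycan CSPG4 stood at 0.983 ± 0.427 CPM (called lower, but with a difference of 0.16 within runs 3 to 5), the muscle genes DES and MYH11 had 8 and 1 counts in all 3 libraries and were not tested, RGS5 (313 counts) was left out of the list because 2 overlapping identifiers share its symbol, CNN1 stood at 0.298 CPM, and the fibroblast surface gene THY1 at 0.654 CPM. Of 8 endothelial markers 5 were higher, TEK (12.1 CPM) and FLT1 (13.9 CPM) without overlap, while VWF stood at 1.05 CPM. Against the L-15 lines 2 were higher and 1 was lower. Of 5 blood cell markers 2 were higher, of which CD14 reached 26.7 CPM, and the leukocyte gene PTPRC stood at 2.59 CPM. In bulk RNA, more cells of a kind and more RNA per cell cannot be told apart. The part of other cells in these levels was not tested.

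Regulators of the mesenchymal state and contractile genes were higher in part. Of 20 genes 10 were higher and 2 lower (median 0.96). The transcription factor SNAI1 stood at 6.67, 6.85 and 8.9 CPM against 0 to 1.8 CPM (median 0.438), a difference of 3.91 ± 0.37 log2 units (SE; edgeR, adjusted p = 1.64e-12), above all 18 libraries. SNAI2 (2.57 ± 0.19), TWIST1 (2.72 ± 0.16), fibronectin FN1 (2.84 ± 0.17) and the myosin light chain MYL9 (2.78 ± 0.18) were higher, and PRRX1 (-1.62 ± 0.21) was lower.

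Among growth factor receptors KIT and the PDGF receptors were higher, and EGFR, MET and AXL lower. KIT, the receptor for stem cell factor, is a gene of luminal progenitors in the breast (ENSG00000157404.15, chromosome 4, 54657918 to 54740715). It stood at 219, 184 and 159 CPM in MDA-MB-157 and at 0.121 to 3.77 CPM (median 2.37) in the others, a difference of 6.82 ± 0.14 log2 units (SE; edgeR, adjusted p = 5.87e-37). All 3 libraries lay far above every library of the other lines. PDGFRB, the PDGF receptor of pericytes and fibroblasts (ENSG00000113721.13, chromosome 5, 150113837 to 150155872), stood at 145, 139.5 and 136 CPM against 0.12 to 47.7 CPM (median 0.632), a difference of 6.52 ± 0.22 log2 units (SE; edgeR, adjusted p = 3.74e-28), and PDGFRA was higher with overlap (2.53 ± 0.20). Of their ligands, PDGFA was higher (2.36 ± 0.11), while PDGFB (-0.16 ± 0.60) was not called and the KIT ligand KITLG stood at 34.6 CPM. EGFR stood at 31.8, 25.7 and 26.2 CPM against 36.4 to 179 CPM (median 107), a difference of -1.73 ± 0.17 log2 units (SE; edgeR, adjusted p = 2.88e-12), below every other library. Its ligands TGFA (-3.74 ± 0.31), EREG (-3.54 ± 0.41) and AREG (-2.19 ± 0.37) were lower, but AREG differed by 0.72 within runs 3 to 5, where it was not called. The receptors MET (-1.29 ± 0.14) and AXL (-1.62 ± 0.21) were lower without overlap, AXL by less than 1 unit within runs 3 to 5 (-0.94), while HGF, the ligand of MET, was higher (2.61 ± 0.24, 27.2 CPM). Over the 37 genes of the list, 10 were higher and 10 lower (14 higher and 9 lower within runs 3 to 5).

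RAS-MAPK signalling is the kinase cascade below these receptors, and its list holds regulators and output genes. Of 25 genes 12 were lower, 6 of them without overlap, 2 were higher and the rest were not called, with a median of -1.02 (2 higher and 12 lower within runs 3 to 5). The feedback inhibitor SPRY2 stood at 5.08, 5.52 and 5.16 CPM against 13 to 76.9 CPM (median 35.4), a difference of -2.60 ± 0.19 log2 units (SE; edgeR, adjusted p = 5.55e-16). PHLDA1 stood at 36.7, 48.9 and 40.2 CPM against 114 to 519.8 CPM (median 271), a difference of -2.71 ± 0.18 log2 units (SE; edgeR, adjusted p = 5.86e-18). Both lay below all 18 libraries. The ETS factors ETV1 (-2.93 ± 0.23) and ETV5 (-1.56 ± 0.18) and the receptor EPHA2 (-2.07 ± 0.15) did so too, and ETV4 (-1.63 ± 0.26) and FOSL1 (-1.90 ± 0.28) were lower with overlap. The ERK phosphatase DUSP6 stood at 4.45, 3.04 and 4.27 CPM, and the means of the other lines lay between 15.5 and 249 CPM except MDA-MB-436 with 2.1 ± 0.405 CPM, so its difference of -3.48 ± 0.27 log2 units (SE; edgeR, adjusted p = 4.19e-15) came with overlap. NF1, which encodes neurofibromin, an inhibitor of RAS, was the one member higher without overlap, at 132, 117 and 141 CPM against 35.7 to 111 CPM (median 59.2), a difference of 1.07 ± 0.12 log2 units (SE; edgeR, adjusted p = 4.87e-11). It fell just under the limit of 1 unit without MDA-MB-231 (0.97) and without replicate 3 of MDA-MB-157 (0.96). NRAS (-0.77 ± 0.12) and BRAF (0.11 ± 0.10) were not called.

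Notch genes were among the higher ones. Notch receptors are cut when a ligand on a neighbouring cell binds, and the freed part joins the DNA-binding protein RBPJ and switches on HES and HEY repressor genes. NOTCH3 is the form known from pericytes and smooth muscle. Of 25 tested genes, 10 were higher and 1 was lower, 6 and 1 without overlap, with a median of 0.80 (13 higher and 1 lower within runs 3 to 5). Against the L-15 lines 15 were higher and 4 lower. Among ligands JAG2 was higher (2.22 ± 0.15), and DLL3 (0.33 ± 0.33) and DLL4 (0.44 ± 0.55) were not called. Among receptors NOTCH3 stood at 76.5, 72.3 and 72.1 CPM against 0.488 to 16.3 CPM (median 5.26), a difference of 3.92 ± 0.15 log2 units (SE; edgeR, adjusted p = 6.44e-26), above all 18 libraries, while NOTCH1 (-0.93 ± 0.20) and NOTCH2 (-0.56 ± 0.12) were not called, NOTCH1 only just (-1.18 and called without replicate 2 of MDA-MB-157). The glycosyltransferases LFNG (2.63 ± 0.24) and MFNG (2.51 ± 0.49), which alter which ligand a receptor answers to, and the Deltex gene DTX1 (3.80 ± 0.57) were higher.

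Of the target genes, HEY1 stood at 117, 98.6 and 112 CPM in MDA-MB-157 and at 0 to 10.2 CPM (median 2.82) in the others, a difference of 5.31 ± 0.14 log2 units (SE; edgeR, adjusted p = 3.7e-32). HEYL stood at 4.13, 7.04 and 5.7 CPM against 0 to 1.58 CPM (median 0.807), a difference of 3.12 ± 0.36 log2 units (SE; edgeR, adjusted p = 3.79e-10). HES4 stood at 10.9, 9.89 and 14.2 CPM against 1.89 to 9.79 CPM (median 3.83), a difference of 1.44 ± 0.25 log2 units (SE; edgeR, adjusted p = 4.04e-06). In all 3 genes every MDA-MB-157 library was above every other library. The feedback gene NRARP was higher with overlap (1.57 ± 0.40), and HEY2 (0.41 ± 0.41) was not called. HES1 (0.97 ± 0.14) lay just under the limit and passed it without replicate 1 of MDA-MB-157 (1.04). CCND1, which encodes cyclin D1 and is also counted among Notch targets, was lower (-3.93 ± 0.17).

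Stretches of the promoters of HEYL and HES4, which were both called, are shown for the RBPJ core motif TGGGAA, in capitals. The same motif on the opposite strand reads TTCCCA. Each stretch is 120 bases upstream of the RefSeq start (GRCh38.p14, minus strand), HEYL at chr1:39639714-39639833 and HES4 at chr1:1000108-1000227.
HEYL: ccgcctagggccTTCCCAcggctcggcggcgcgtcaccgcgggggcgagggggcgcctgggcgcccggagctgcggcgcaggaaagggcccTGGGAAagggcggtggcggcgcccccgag
HES4: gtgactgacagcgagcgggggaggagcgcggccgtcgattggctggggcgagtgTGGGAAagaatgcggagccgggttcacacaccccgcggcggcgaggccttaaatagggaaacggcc
HEYL held 1 match in each direction and HES4 held 1. Searched on both strands, the motif was in 9 of the 28 promoters of 22 genes of the list and in 4 of the 9 of genes called higher, and 24.0% of all 35116 promoters of 300 bases (250 before to 50 after the start) held it. The promoter of HEY1 was not analysed here. A match describes the letters and not binding.

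**Figure D3:**
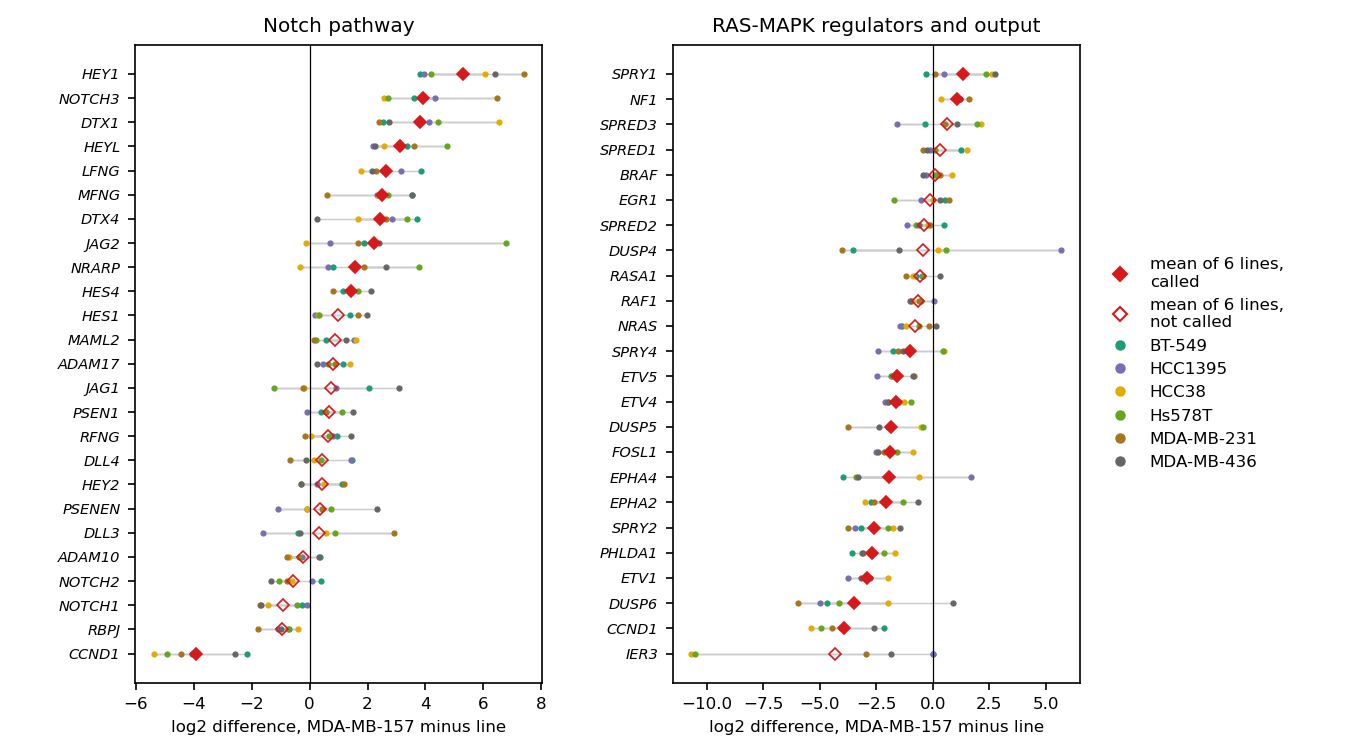
Log2 difference between MDA-MB-157 and each of the 6 other lines (coloured points) and their mean (diamond, filled where called) for 25 Notch genes and the RAS-MAPK genes reported here. HEY1, NOTCH3, DTX1, HEYL, LFNG and HES4 lie to the right of 0 against every line, and SPRY2, PHLDA1, ETV1, EPHA2 and CCND1 to the left.

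Cyclins of the G1 phase went in opposite directions. Cyclins D1 and D2 with CDK4 or CDK6, and cyclin E with CDK2, drive cells into S phase. CCND1 stood at 25.9, 23 and 24.2 CPM in MDA-MB-157 against 75.9 to 1209 CPM (median 472), a difference of -3.93 ± 0.17 log2 units (SE; edgeR, adjusted p = 1.74e-24). CCND2 had 2 counts in the 3 libraries together, against 0.348 to 54.1 CPM (median 3.55) in the others. Cyclin E1, CCNE1, stood at 103, 115 and 119 CPM against 10.9 to 41 CPM (median 29.2), a difference of 2.17 ± 0.11 log2 units (SE; edgeR, adjusted p = 4.32e-22). All 3 cyclins separated MDA-MB-157 from the 18 libraries, CCND2 only near the floor. HCC38 stood at 0.391 CPM of CCND2, and the difference from that line alone was not called (-1.59). CCNE1 lies on chromosome 19, and of the 6 tested genes from UQCRFS1 to URI1 around it, 5 were higher, each without overlap. They are UQCRFS1 (1.65 ± 0.10), POP4 (1.43 ± 0.09), C19orf12 (1.63 ± 0.10), CCNE1 and URI1 (1.76 ± 0.10), while PLEKHF1 was not called (0.05 ± 0.22). Copy number was not measured.

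Of 25 genes of this step 6 were higher and 8 lower, but 6 and 4 against the L-15 lines. The phosphatase CDC25A (-2.18 ± 0.13) and the inhibitor CDKN1B (-1.43 ± 0.15) were among the lower. The inhibitor gene CDKN2A stood at 45.4, 61.5 and 51.1 CPM in MDA-MB-157, within the range of the other lines, of which HCC38 and MDA-MB-231 were at 0 and BT-549 reached 159.8 ± 41.6 CPM. Of 31 replication and mitosis genes 13 were lower and 0 higher, with a median of -0.86 (0 higher and 15 lower within runs 3 to 5). With scaling factors from genes of at least 10 CPM in every library 8 were lower, and against the L-15 lines 5 were lower and 1 was higher. The licensing genes MCM2 (-2.10 ± 0.15) and CDT1 (-2.58 ± 0.25) were among the lower, and the proliferation marker MKI67 was not called (-0.38 ± 0.20).

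Inflammatory genes were mostly lower in MDA-MB-157. Of 27 cytokine and NF-kB genes 15 were lower and 4 higher, with a median of -1.65 (4 higher and 13 lower within runs 3 to 5). Against the L-15 lines alone 19 were lower. The apoptosis inhibitor BIRC3, a target of NF-kB, stood at 5.4, 4 and 4.98 CPM against 21.5 to 743 CPM (median 134), a difference of -4.85 ± 0.32 log2 units (SE; edgeR, adjusted p = 6.02e-18). The cytokine LIF stood at 1.75, 1.14 and 1.42 CPM against 4.72 to 125 CPM (median 39), a difference of -4.56 ± 0.45 log2 units (SE; edgeR, adjusted p = 3.73e-12). The NF-kB subunits RELB (-3.49 ± 0.32), NFKB2 (-1.87 ± 0.16) and NFKB1 (-1.22 ± 0.11) were lower without overlap, while RELA was not called (0.02 ± 0.15). The interleukin receptor gene IL4R was lower without overlap too (-1.31 ± 0.16). IL11, which signals through the same receptor partner as LIF, went the other way. It stood at 110.5, 134 and 149 CPM against 0 to 72.3 CPM (median 2.2), a difference of 5.38 ± 0.19 log2 units (SE; edgeR, adjusted p = 1.11e-27), above all 18 libraries.

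WNT genes changed in both directions, and TGF-beta and BMP genes were more often higher than lower. Of 26 WNT genes 10 were higher and 5 lower (median 0.43). The feedback gene AXIN2 stood at 15.1, 13.1 and 12.3 CPM against 0 to 6.64 CPM (median 1.9), a difference of 3.22 ± 0.23 log2 units (SE; edgeR, adjusted p = 2.89e-16), above all other libraries. The secreted proteins DKK3 (4.39 ± 0.14) and SFRP1 (4.11 ± 0.13), the ligands WNT11 (3.60 ± 0.40) and WNT5A (2.41 ± 0.17) and the WNT5A receptor ROR2 (2.85 ± 0.25) were higher, and the receptor FZD8 (-4.19 ± 0.36) and the inhibitor DKK1 (-2.51 ± 0.20) lower. Of 27 TGF-beta and BMP genes 12 were higher and 2 lower (median 0.67). The ligand TGFB3 stood at 28.6, 24.7 and 24.9 CPM against 0.793 to 8.44 CPM (median 3.09), a difference of 3.06 ± 0.15 log2 units (SE; edgeR, adjusted p = 8.25e-22). TGFB2 (1.90 ± 0.15), TGFB1 (1.32 ± 0.24) and the receptor TGFBR1 (1.20 ± 0.12) were higher too, while BMP2 was lower (-3.34 ± 0.49).

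Imprinted genes, which most tissues express from the copy of 1 parent, were mostly higher. Of 13 tested 10 were higher and 1 was lower, 4 and 0 without overlap, with a median of 2.03 (9 higher and 0 lower within runs 3 to 5). The noncoding RNA H19 (ENSG00000130600.18, chromosome 11, 1995176 to 2001470) stood at 135, 168 and 139 CPM against 0 to 13.1 CPM (median 0.614), a difference of 7.76 ± 0.17 log2 units (SE; edgeR, adjusted p = 2.5e-35). PEG3, a zinc finger gene expressed from the paternal copy, stood at 139, 127 and 136 CPM against 0.488 to 30.2 CPM (median 5.28), a difference of 4.96 ± 0.16 log2 units (SE; edgeR, adjusted p = 5.76e-29). SNRPN, which shares its transcript with SNURF, stood at 31.8, 27.4 and 28.7 CPM against 0 to 14.7 CPM (median 3.11), a difference of 4.30 ± 0.19 log2 units (SE; edgeR, adjusted p = 4.9e-24). In H19, PEG3, SNRPN and GNAS (1.52 ± 0.12) no other library reached MDA-MB-157. PEG10 (511 CPM), MEG3 (18.9 CPM) and NDN were higher with overlap, and GRB10 was lower (-1.05 ± 0.24) only in part of the settings, with 0.13 within runs 3 to 5 and -0.87 without replicate 2 of MDA-MB-157. PEG3 closes a run of 9 neighbouring zinc finger genes on chromosome 19, from ZNF582 to PEG3, all higher without overlap with a median of 2.28, among them ZNF471 (3.88 ± 0.13) and ZNF667 (3.16 ± 0.14).

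Several genes that every other basal B line expresses had almost no reads in MDA-MB-157, and many of them are neighbours. The named gene SLC35G2, a nucleotide sugar transporter family member on chromosome 3, had 0 counts and was at least 150-fold lower than the mean of the 6 lines. ANP32A, a histone chaperone and phosphatase regulator on chromosome 15 (ENSG00000140350.15, chromosome 15, 68778535 to 68820897), had 1 count against 43.2 to 223 CPM (median 93.5) and was lower by 1570-fold (95% Poisson interval 281 to 61900). The bound takes 3 counts over the summed libraries as the floor, and both use CPM without scaling and cover counting error only.

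On chromosome 13, 3 neighbours were near 0 together. The transcription corepressor gene ZMYM2 (ENSG00000121741.16, chromosome 13, 19958670 to 20091829) stood at 0.159, 0 and 0.356 CPM against 53.1 to 225 CPM (median 105), its relative ZMYM5 at 0.159, 0 and 0.356 CPM against 19.7 to 49.9 CPM (median 28.4) and the paraspeckle gene PSPC1 at 1.27, 0.571 and 0.356 CPM against 51.8 to 189.6 CPM (median 113). ZMYM2 was lower by 565-fold (95% Poisson interval 193 to 2740), ZMYM5 149-fold (95% Poisson interval 51.1 to 724) and PSPC1 127-fold (95% Poisson interval 74.5 to 239). The flanking tested genes MPHOSPH8 (-0.42 ± 0.12) and GJA3 (0.42 ± 0.30) were not called. Farther along, 11 of the 15 tested protein-coding genes from XPO4 to RNF17 were lower, 9 without overlap, with a median of -1.56. That window was picked as one of the lowest.

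On chromosome 3, from 136336233 to 137011085, SLC35G2 lies between STAG1, a cohesin subunit gene, NCK1, an adaptor gene, and IL20RB, a cytokine receptor gene. STAG1 stood at 1.91, 3.23 and 3.56 CPM against 85.5 to 282 CPM (median 163), NCK1 at 2.06, 0.381 and 1.96 CPM against 46.8 to 96.8 CPM (median 71.8), and IL20RB at 0.18 CPM. On chromosome 2, from 159712457 to 160493794, 6 neighbours were lower: MARCH7, CD302, LY75, PLA2R1, ITGB6 and RBMS1. The RNA-binding protein gene RBMS1 stood at 1.59, 0.761 and 1.6 CPM against 74.5 to 258 CPM (median 145), CD302 and LY75 had 0 counts, and LY75 alone overlapped other lines. BAZ2B before this run (0.36 ± 0.10) and TANK after it (0.72 ± 0.09) were not called. On chromosome 22 the semaphorin receptor PLXNB2 stood at 0.159, 0.19 and 0.178 CPM against 13.6 to 60.1 CPM (median 29.9), DENND6B had 0 counts and PPP6R2 12, and on chromosome 19 ZNF283, ZNF404 and ZNF45 had 1, 0 and 4 counts.

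On chromosome 15 the run held SPG11, PATL2 and B2M. SPG11, which encodes the lysosomal protein spatacsin, stood at 0.476, 1.33 and 0.89 CPM against 47 to 132 CPM (median 83.6). B2M encodes beta-2-microglobulin, the light chain that every HLA class I molecule needs at the cell surface. It stood at 0.476, 0.19 and 0.178 CPM in MDA-MB-157, at 0.828 ± 0.646 CPM (SD, n = 3) in HCC1395 and at 168 to 390 CPM in the other 5 lines, so it overlapped with HCC1395 alone. SPG11 was not low in HCC1395 (101 ± 7.31 CPM). Of 20 listed HLA and antigen processing genes 11 were tested, of which 4 were higher and 1, B2M, was lower. HLA-E, TAP1, TAP2, TAPBP, PSMB8 and PSMB9 were among those not tested. HLA genes are polymorphic and similar to each other, so their counts depend on how reads align to the reference alleles.

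In all, 14 runs of at least 2 neighbouring protein-coding genes were each lower by at least 3 log2 units. Of these, 7 held 3 or more genes. Another 42 runs were higher by as much than the mean of the other lines. Some of the higher runs, such as CDKN2A to ELAVL2 and COL3A1 with COL5A2, held no gene called without overlap. Runs on the higher side included neighbours of 1 family, such as the guanylate cyclase subunits GUCY1A1 (84 CPM) and GUCY1B1 (57.4 CPM). COL4A1 and COL4A2 lay in a run of 4 genes from IRS2 to RAB20. Other runs joined genes that are not of 1 family and held named genes, such as SUSD2 with GGT5, COL5A3 with OLFM2 and ZDHHC22 with TMEM63C. ITM2A closed a run of 4 genes that starts at RTL3, all without overlap. ANP32A formed a lower run with its neighbour SPESP1, which had 0 counts in MDA-MB-157. SPESP1 was also low in BT-549 (0.26 CPM), MDA-MB-231 (1.03 CPM) and MDA-MB-436 (0.577 CPM). The remaining named genes with almost no reads lie in no such run: FBXO33 (5 counts), an F-box gene, DMXL1 (8 counts), a gene of proton pump assembly, PNMA8A (3 counts) and ZNF649 (2 counts). FBXO33 stood at 38.7 to 84.6 CPM (median 57.3) in the other lines and DMXL1 at 44 to 127 CPM (median 80.8). DNA was not measured. CD302 overlaps the end of MARCH7, and SPESP1 the start of ANP32A, each on the opposite strand. The strand setting of the counting is not given in the sources used here, so reads of these overlaps cannot be told apart.

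Whole stretches of chromosomes also differed. Of 203 tested protein-coding genes that start in the first 34 Mb of chromosome 12, the extent of which was chosen after the values were seen, 119 (58.6%) were lower and 8 (3.94%) higher, 64 and 1 without overlap, with a median of -1.38. Over all 15103 tested protein-coding genes of chromosomes 1 to 22 and X, 13.5% were lower and 17.5% higher, and on the rest of chromosome 12 11.3% were lower, with a median of -0.0856. The first part of chromosome 12 holds the glycolytic genes GAPDH and TPI1 and the lactate dehydrogenase LDHB. GAPDH stood at 688, 782 and 771 CPM against 929.6 to 3869 CPM (median 1924), a difference of -1.44 ± 0.16 log2 units (SE; edgeR, adjusted p = 7.93e-11). TPI1 stood at 329, 347 and 366 CPM against 778 to 2033 CPM (median 1349), a difference of -1.91 ± 0.15 log2 units (SE; edgeR, adjusted p = 1.55e-15). LDHB stood at 171, 137 and 149 CPM against 553 to 2134 CPM (median 1292), a difference of -3.12 ± 0.18 log2 units (SE; edgeR, adjusted p = 1.33e-19). All 3 genes lay below every other library. These were the 3 lower ones of 23 glycolysis genes tested, of which 6 were higher. Against the L-15 lines 5 were higher and 6 lower. CCND2, TIGAR (-2.10 ± 0.16), CDKN1B, NDUFA9 (-1.85 ± 0.15) and PARP11 (-5.11 ± 0.40) lie in the same stretch. On X, 32.3% of 582 genes were higher, with a median of 0.562, and on chromosome 17, 28.9% of 828, with a median of 0.496. On chromosome 13, 28.2% of 266 genes were lower and 21.8% higher, with a median of -0.494.

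**Figure D4:**
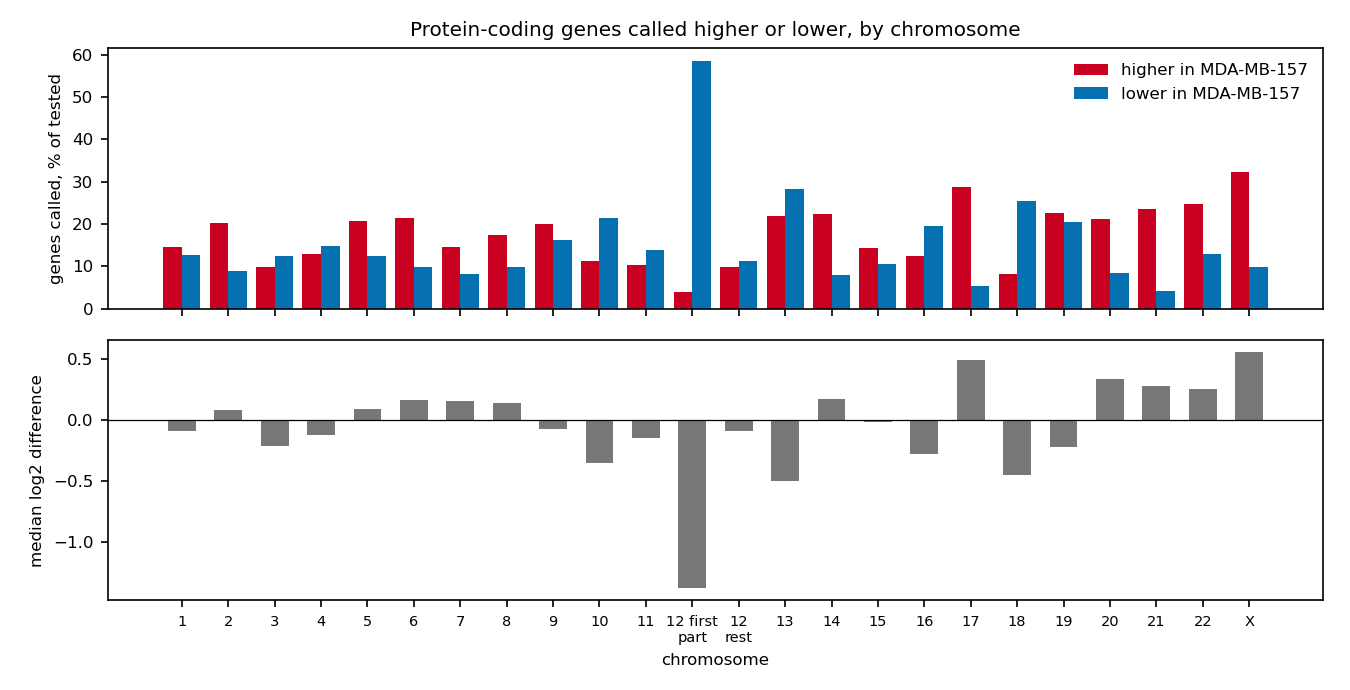
Share of tested protein-coding genes called higher or lower in MDA-MB-157 (top) and median log2 difference (bottom) by chromosome, with chromosome 12 split at 34 Mb. The first part of 12 has 58.6% lower genes and a median of -1.38, and X and 17 have the highest medians.

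Among metabolic lists, those of amino acids, ribosome biogenesis and sterols had more lower than higher genes, and those of hypoxia and the mitochondrial genome more higher ones. Of 26 glutamine and glutamate genes 11 were lower and 3 higher, with a median of -0.96 (3 higher and 9 lower within runs 3 to 5, and 7 lower with the stricter scaling genes). The amino acid exchanger SLC7A5 stood at 23.5, 25.1 and 26.2 CPM against 40 to 260.5 CPM (median 93.2), a difference of -1.90 ± 0.23 log2 units (SE; edgeR, adjusted p = 9.89e-10), and its heavy chain SLC3A2 was lower too (-1.67 ± 0.13), both without overlap. The glutamate transporter SLC1A3 was higher (2.71 ± 0.14). MYC, a driver of ribosome and metabolic genes, stood at 32.5, 38.6 and 32.6 CPM against 51.4 to 240.3 CPM (median 105), a difference of -1.66 ± 0.16 log2 units (SE; edgeR, adjusted p = 3.38e-12), below all 18 libraries. Of 42 ribosome biogenesis genes 11 were lower, 7 without overlap, and 1 was higher (1 higher and 16 lower within runs 3 to 5). NOP56 (-1.69 ± 0.10) and UTP20 (-1.51 ± 0.12) were among the lower ones. With the stricter scaling genes 7 were lower. Among 16 enzymes of serine and one-carbon metabolism 5 were lower and 1 was higher. Against the L-15 lines 3 were lower and 1 was higher, and with the stricter scaling genes 4 and 2. Within runs 3 to 5, 7 of 15 were lower and 1 was higher. The serine synthesis gene PSAT1 stood at 13.8, 12 and 9.97 CPM against 15.1 to 286 CPM (median 99.1), a difference of -2.66 ± 0.23 log2 units (SE; edgeR, adjusted p = 1.12e-13). Of 28 cholesterol and fatty acid synthesis genes 8 were lower and 1 was higher.

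Nuclear complex I genes stayed mostly uncalled: of 47 tested, 2 were higher and 7 lower, 5 of them without overlap, such as NDUFA9 and the assembly factor TMEM126B (-1.53 ± 0.14). With the stricter scaling genes 5 were higher and 4 lower. The mitochondrial genome encodes 13 tested mRNAs, of which 8 were called higher and 0 lower, MT-CO1 (1.89 ± 0.23) and MT-CO2 (1.74 ± 0.24) without overlap. Against the L-15 lines 5 were called higher. The mitochondrial share of the counts moves with this result and differed between lines of the class, the medians being 0.449% for MDA-MB-157, 0.451% for BT-549 and 0.0557% for HCC1395, and its part in the result was not tested. Of 24 hypoxia genes 9 were higher and 1 was lower (12 higher and 1 lower within runs 3 to 5). The prolyl hydroxylase EGLN3 stood at 70, 61.5 and 76.7 CPM against 1.09 to 48.5 CPM (median 7.91), a difference of 3.50 ± 0.16 log2 units (SE; edgeR, adjusted p = 9.3e-24), and ANGPTL4 (3.30 ± 0.19) was also above all libraries, while VEGFA (-0.07 ± 0.13) was not called. PDK4, a kinase that closes pyruvate entry to the TCA cycle, stood at 117, 102 and 101 CPM against 1.06 to 15.9 CPM (median 3.91), a difference of 4.58 ± 0.16 log2 units (SE; edgeR, adjusted p = 4.96e-28).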

How the data were processed

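The deposited table holds raw read counts per gene for 45 libraries, made by the authors from ribosomal-RNA-depleted total RNA (RNeasy, Ribo-Zero Gold and ScriptSeq v2 kits, per the labels' protocols). The submitters' processing notes name bcl2fastq 2.20.0.422, FastQC, MultiQC, Trimmomatic, STAR, featureCounts and GRCh38.p12, and the strand setting is not given in the sources used here. Symbols and positions came from GENCODE 29, which matched 90.4% of 64485 identifiers, and identifiers without a match held 0.0785% of the counts.

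All 45 libraries were fitted with 1 coefficient per line in edgeR 4.0.16 (R 4.3.3) by its quasi-likelihood test, with TMM scaling, filterByExpr (minimum count 10, total 15) and Benjamini-Hochberg adjustment over 20587 genes. Errors are SE of the log2 difference, or SD over 3 libraries. Simulated data for this comparison (20587 genes) held 1 fixed spread and, apart from the changed genes, the same mean in every line. Only genes with ample counts were changed. There 50 of 50 genes were recovered at each of 4 changes, the largest being -2 and 2 log2 units. Changes at the limit of 1 log2 unit and genes near 0 were not simulated. Replicates of each line differed by more than sampling noise (chi-square per degree of freedom 2.505 to 28.24). The labels tie replicate numbers to a run in runs 3 to 5, which pairs those libraries. The deviations of libraries of the same run correlated at -0.146 to 0.256 (median 0.0416, 18 pairs), and of different runs at -0.258 to 0.207. DESeq2 1.42.0 and the other alternatives are given in the closing section.

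Named genes are protein-coding genes called without overlap: the 12 of each direction with the largest difference and the 8 with the largest gap to the nearest line, with at least 10 CPM in MDA-MB-157 (higher) or in each other line (lower), plus examples of the gene lists. The members and lists were chosen with earlier results of these data known. Genes near 0 carry a Poisson ratio with a 95% interval, or a bound with 3 counts as the floor. Some genes of the lists are not reported here.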

Additional observations from a re-analysis of the deposited data

How the results depend on the processing

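The counts of called genes stayed within 1.5 times of 3715 higher and 2447 lower under every alternative run except a limit of 2 log2 units, which left 1485 higher and 695 lower, 804 and 328 without overlap. Counts without overlap rose to 2348 higher and 1695 lower within runs 3 to 5 and to 2916 and 2148 against the L-15 lines, where fewer libraries can overlap. With the run, which is also the replicate number, as a replicate block within runs 3 to 5, 3822 genes were higher and 2587 lower, 2416 and 1755 without overlap. With the replicate number as a block over 45 libraries, where it is not the run for the lines of runs 1 and 2, 3745 were higher and 2447 lower, 1399 and 980 without overlap. Leaving out 1 replicate at a time gave 3480 to 4090 higher and 2371 to 2635 lower genes, 1343 to 1617 and 976 to 1178 without overlap. Leaving 1 line out of the mean gave 3600 to 3905 and 2370 to 2613. No filter gave 4901 and 2534, and DESeq2's Wald test 3968 and 2134. Of 182 called genes that were examined singly, 130 kept call and direction under every alternative that gave a value. With the limit of 2 log2 units set aside, 166 did so. Within runs 3 to 5, without and with the block, these differences changed sign: AREG (0.72 and 0.69), CSPG4 (0.16 and 0.13), EPCAM (1.87 and 1.86) and GRB10 (0.13 and 0.11). Against the L-15 lines COL1A2 (0.22) and THY1 (1.03) did so, and without HCC38 EPCAM did (1.08). The causes were not tested. Genes with few counts are limited by depth.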

Other observations

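Genes of cartilage, bone and fat were higher in part in MDA-MB-157. Of 17 tested 7 were higher and 3 lower. ACAN, which encodes the large cartilage proteoglycan aggrecan, stood at 2.54, 2.85 and 2.14 CPM against 0 to 2.1 CPM (median 0.508), a difference of 2.14 ± 0.53 log2 units (SE; edgeR, adjusted p = 0.000598). The cartilage collagen chain COL9A2 (5.00 ± 0.18), the phosphatase of mineralising cells ALPL (3.84 ± 0.22) and the fat cell factor CEBPA (2.52 ± 0.28) were also above all 18 libraries. Of 10 muscle genes 1 was higher. Of 20 neural and neural crest genes 4 were higher and 3 lower, of which MAP2, a microtubule protein of dendrites, differed by 2.44 ± 0.17 and the tubulin TUBB3 by -1.67 ± 0.34.

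Among 16 BCL2 family genes, the death activators BMF (3.48 ± 0.22) and BCL2L11 (1.38 ± 0.20) were higher, and the survival gene BCL2L1 (-1.68 ± 0.13) and the death gene BAX (-1.71 ± 0.21) lower, all without overlap. Of 23 homologous recombination genes 4 were lower and 0 higher, with BRCA2 at -1.48 ± 0.13. Of 14 ANP32 family and histone chaperone genes 7 were lower, with the ANP32A partner SET at -1.39 ± 0.13, and ANP32B was not called (0.32 ± 0.21). Of 17 stress response genes 7 were lower, with DDIT3 at -1.10 ± 0.18. Of 19 long noncoding RNAs 6 were higher and 3 lower, with MIR100HG at -4.93 ± 0.25. Of 20 cancer-testis genes 7 were higher and 6 lower, and of 21 surface antigens 3 were higher and 7 lower, with MUC1 at 2.85 ± 0.31. Both balances turned within runs 3 to 5, to 2 higher and 8 lower cancer-testis genes and 5 higher and 3 lower surface antigens. Against these counts, 18% of all tested genes were higher and 11.9% lower.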
